A study of Mus musculus with 10 samples.

Results

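IGHD2, also called DSP2, is one of the families of diversity (D) segments of the mouse immunoglobulin heavy-chain locus. A heavy-chain clonotype, a row with its own V, D and J assignment, junctional complementarity-determining region (CDR3) and read count, was taken as IGHD2 when every gene named in its D column began with IGHD2-. By this rule 79987 of the 183540 clonotypes with a D gene, and of 195529 clonotypes in all, belonged to the family, under 10 D names. The study sequenced rearranged heavy-chain DNA from peritoneal cavity B-1a cells of C57BL/6 mice aged 6 to 8 weeks, with 2 libraries from wild-type mice and 2 from Igll1 knockout (Igll1-/-) mice kept on the same background. Genomic DNA was amplified with V and J primers into products of 120 to 280 base pairs, with VH12-3 covered by primers of its own, so shares between V genes also follow the primer mix. The paper describes the replicates as independent experiments, and the labels name no single animals. Igll1 itself is not measured in these libraries, so the genotype labels could not be checked against it, and DNA of the locus carries no cell type marker.

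During B cell development a D segment is first joined to a J segment and the D-J product is then joined to a V segment, and the D segment can be read in any of 3 frames. In IGHD2 segments one frame is rich in tyrosine, with glycine in some members. Another, the hydrophobic frame, encodes mainly methionine, valine, isoleucine and threonine, and the remaining frame of most members meets a stop codon. In the hydrophobic frame an incomplete D-J join of this family can be translated as Dμ, a truncated heavy chain that pairs with the surrogate light chain, and this frame is known to be rare in mature B cells of normal mice. Igll1 encodes λ5, a component of the surrogate light chain and hence of the pre-B cell receptor.

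The following CDR3 sequences show the 2 frames. Each is written from its N-terminal end in lower case, with the residues read from the D segment that define the frame in capitals (YGN or DGY for the tyrosine frame, MVT or MIT for the hydrophobic frame, and no capitals where neither frame was recognised). The first 3 lines hold the largest IGHD2 clonotype of each library by reads, which both wild-type libraries share, and the last 4 hold a large hydrophobic-frame clonotype of each library.
wild-type replicates 1 and 2, IGHV11-2 IGHD2-1 IGHJ1: mrYGNywyfdv
Igll1-/- replicate 1, IGHV12-3 IGHD2-3 IGHJ2: agdrggyyyfdy
Igll1-/- replicate 2, IGHV12-3 IGHD2-3 IGHJ2: agdlyDGYyyfdy
wild-type replicate 1, IGHV1-80 IGHD2-4 IGHJ3: arstMITtfay
wild-type replicate 2, IGHV5-17 IGHD2-2 IGHJ4: aMVTtmdy
Igll1-/- replicate 1, IGHV1-85 IGHD2-1 IGHJ2: arstMVTyyfdy
Igll1-/- replicate 2, IGHV9-3 IGHD2-4 IGHJ3: atMITtwfay
The same rearrangement, mrYGNywyfdv, led both wild-type libraries with 13602 and 15813 reads, which were 13.1% and 16.2% of their IGHD2 reads. The leading IGHD2 clonotype of Igll1-/- replicate 1 held 4354 reads (6.19% of IGHD2 reads) and that of replicate 2 held 10479 (8.04%). The wild-type hydrophobic-frame clonotypes shown, the largest of their libraries, had 27 and 39 reads. Those of the Igll1-/- libraries had 430 and 2404 reads, the former being the second largest of its library after one of 560 reads.

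The 4 libraries held between 32386 and 58205 clonotypes and between 180593 and 285517 reads, and Igll1-/- replicate 1 had the fewest of both. The number of IGHD2 clonotypes was 22939 and 19186 in the wild-type against 13564 and 24298 in the Igll1-/- libraries. Between 68.1% and 74.1% of IGHD2 clonotypes in a library rested on 1 read, and 822 to 1220 IGHD2 clonotypes per library had at least 10 reads. Clonotypes without any D gene were 5.62% and 5.85% of the wild-type libraries and 6.40% and 6.71% of the Igll1-/- libraries. The D names of replicates of one genotype differed by far more than counting error (chi-square 600 and 405 on 22 degrees of freedom), so no pair of libraries was counted as a single one.

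To ask how often the family was used, its share of clonotypes with a D gene was compared between genotypes. In wild-type B-1a cells IGHD2 supplied 44.1% (95% Wilson interval 43.7 to 44.5) and 40.9% (40.5 to 41.4) of clonotypes. With Igll1 knocked out it supplied 44.7% (44.2 to 45.3) and 44.7% (44.3 to 45.2). These intervals cover the counting error of clonotypes only and not the spread between libraries, and the reads carry no molecular identifiers. Both Igll1-/- libraries lay above both wild-type libraries, but the first wild-type library was within 1 percentage point of them and the 2 wild-type values lay further apart than that. The means were 42.5 ± 2.25% (SD, n = 2) and 44.7 ± 0.00086% (n = 2), a difference of 2.25 percentage points (exact permutation p = 0.333, two-sided, the smallest that 2 against 2 libraries can give). Counted by reads the direction was the opposite, with 50.6% and 48.8% in wild-type against 42.3% and 49.6% in Igll1-/- libraries, and the groups overlapped. Among unproductive clonotypes the family share was 50.3% and 54.5% in wild-type against 50.8% and 53.1% in Igll1-/- libraries, higher than among productive clonotypes in each library.

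Within the family, 5 names held most clonotypes in each library. IGHD2-3 supplied 11.2% and 10.6% of clonotypes with a D gene in wild-type against 9.95% and 12.02% in Igll1-/- libraries. IGHD2-4 supplied 9.19% and 6.24% against 8.62% and 7.99%. IGHD2-5 supplied 6.98% and 7.87% against 7.49% and 6.99%. For these 3 names, the ones for which the RefSeq mouse table (GRCm38.p6) holds a gene, the genotypes overlapped. They made up 58.2% to 62.0% of IGHD2 clonotypes in a library and lie side by side in the table's gene order, downstream of Ighd1-1 and upstream of the J segments. The table also holds Ighd2-6, Ighd2-7 and Ighd2-8, next in that order, which no clonotype names. IGHD2-1 supplied 7.71% and 7.98% in wild-type against 8.50% and 9.25% in Igll1-/- libraries, and IGHD2-2 supplied 4.26% and 3.27% against 5.23% and 3.58%. The segments of the family are close in sequence, and 2.05% to 2.51% of IGHD2 clonotypes per library listed alleles of several D genes, so single names are less certain than the family as a whole. Names that the table does not hold made up 38% to 41.8% of IGHD2 clonotypes, and whether some stand for near-identical segments was not tested. The remaining names, IGHD2-10, IGHD2-12, IGHD2-13, IGHD2-14 and IGHD2-9, each stayed at or below 1.51% in every library.

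**Figure D1:**
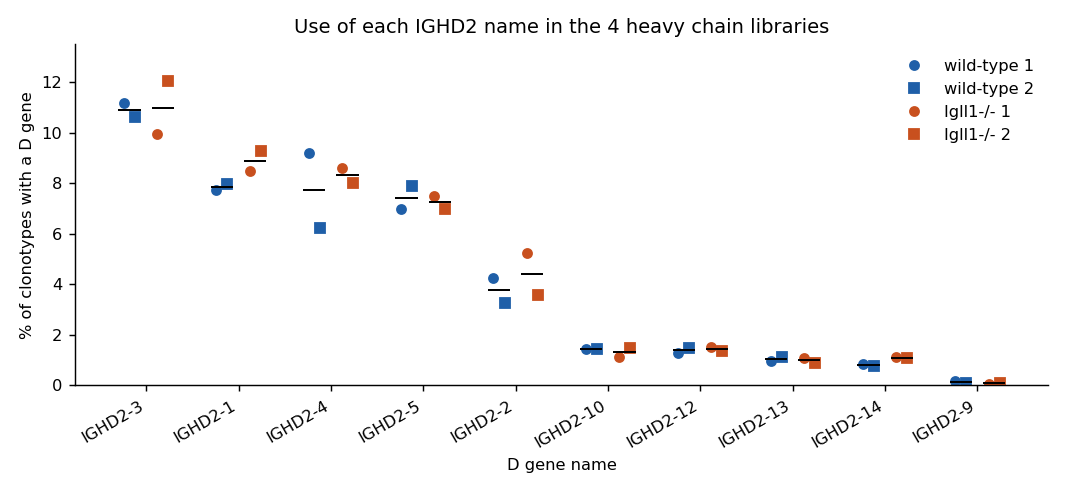
Share of clonotypes with a D gene held by each IGHD2 name (percent, vertical axis) in the 2 wild-type and the 2 Igll1-/- libraries, with one point per library and a short line at each genotype's mean. IGHD2-3 was the most used name in every library, at 9.95% to 12.02%, and the genotypes overlapped for IGHD2-3, IGHD2-4 and IGHD2-5.

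No D name differed between genotypes in edgeR's quasi-likelihood fit across the 22 D names tested (0% called at an adjusted p of 0.05, with 3 at an unadjusted p below 0.05, and 0 called by DESeq2). The log2 fold changes of the 10 IGHD2 names, Igll1-/- over wild-type, ran from -0.83 (IGHD2-9) to 0.42 (IGHD2-14), with a median of 0.03 against -0.04 over all D names. IGHD2-14 had the smallest adjusted p (0.214 in edgeR, SE 0.10), with 0.861% and 0.789% of clonotypes in wild-type against 1.13% and 1.08% in Igll1-/- libraries. Of the 10 IGHD2 names, 2 (IGHD2-1 and IGHD2-14) were higher in both Igll1-/- libraries than in both wild-type libraries, where 13.6% of all D names were, and neither of these names is held by the RefSeq table. A single one, IGHD2-9, was lower in both, where 36.4% of all D names were, and it counted only 21 to 97 clonotypes per library. For comparison, IGHD1-1, the most used D name of the series, supplied 30.9% and 30.6% against 32.2% and 33.3%, and IGHD4-1 supplied 10.4% and 12.8% against 10.03% and 9.11%.

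The frame in which IGHD2 was read separated the genotypes more widely than the choice of D name. Productive IGHD2 clonotypes were scored for 3 strings of the hydrophobic frame (MVT, MIT and IVT) and 4 of the tyrosine frame (DGY, YDY, YSN and YGN), searched in the CDR3 without its last 3 residues, which come from the J segment. The hydrophobic frame was found in 1148 and 397 clonotypes of the wild-type libraries and in 1399 and 2322 of the Igll1-/- libraries. As a share of productive IGHD2 clonotypes this was 5.51% and 2.29% in wild-type against 11.1% and 10.3% in Igll1-/- libraries. Both Igll1-/- libraries lay above both wild-type libraries, and the 2 wild-type values lay further apart than the 2 Igll1-/- values. The means were 3.90 ± 2.27% and 10.7 ± 0.56% (SD, n = 2 each), a difference of 6.82 percentage points (exact permutation p = 0.333, the smallest possible).

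The tyrosine frame moved the other way. It was found in 41.5% and 44.1% of productive IGHD2 clonotypes of the wild-type libraries and in 29.0% and 32.3% of those of the Igll1-/- libraries. The means of 42.8 ± 1.81% and 30.7 ± 2.29% (SD, n = 2 each) differed by -12.1 percentage points, several times the spread of either genotype, with an exact permutation p of 0.333. Strings of neither frame were found in 53.0% and 53.7% of wild-type and 59.9% and 57.4% of Igll1-/- clonotypes, and at most 2 clonotypes per library held strings of both. Among clonotypes with strings of exactly 1 frame, the hydrophobic frame made up 11.7% and 4.93% in wild-type against 27.7% and 24.2% in Igll1-/- libraries. This share also follows how well the strings cover each D name, which was not checked. In clonotypes of the other D families the hydrophobic strings were almost absent, at 0.0230% to 0.146% per library, and the tyrosine strings were found in 1.23% to 1.64%.

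The gap between genotypes widened with the number of reads behind a clonotype. Among productive IGHD2 clonotypes with 1 read, the hydrophobic frame share was 5.85% and 2.62% in wild-type against 10.7% and 10.05% in Igll1-/- libraries. With 2 to 9 reads it was 5.27% and 1.44% against 12.2% and 10.9%. With at least 10 reads it was 17 of 985 clonotypes (1.73%, 95% Wilson interval 1.08 to 2.75) and 10 of 940 (1.06%, 0.579 to 1.95) in wild-type. In the Igll1-/- libraries it was 93 of 762 (12.2%, 10.1 to 14.7) and 123 of 1149 (10.7%, 9.05 to 12.6). In wild-type libraries the hydrophobic frame thus became rarer among larger clonotypes, whereas in Igll1-/- libraries it stayed between 10.05% and 12.2% in these 3 classes. At 100 reads or more, 0 of 62 and 0 of 68 wild-type clonotypes held the hydrophobic frame, which allows shares of up to 4.84% and 4.41% by 3 counts of the total (Wilson upper limits 5.83% and 5.35%), against 8 of 72 (11.1%) and 16 of 127 (12.6%) in the Igll1-/- libraries. The tyrosine frame share among clonotypes with at least 10 reads was 53.2% and 50.3% in wild-type against 26.6% and 32.0% in Igll1-/- libraries. Weighted by reads, the hydrophobic frame held 1.91% and 0.788% of productive IGHD2 reads in wild-type against 10.3% and 11.3% in Igll1-/- libraries.

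**Figure D2:**
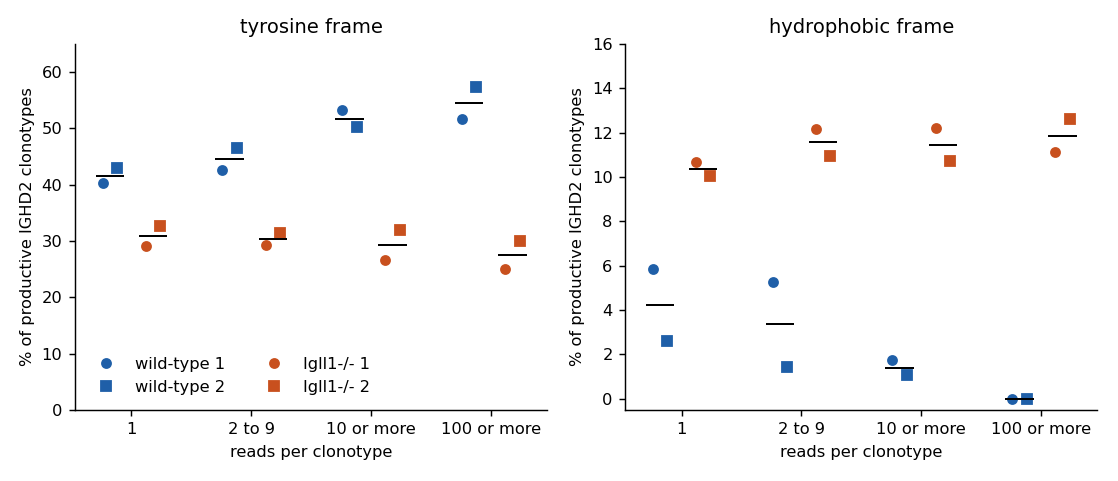
Share of productive IGHD2 clonotypes in the hydrophobic frame and in the tyrosine frame (percent, vertical axes) by the number of reads per clonotype (horizontal axis, the class of at least 10 reads including that of at least 100), with one point per library and a short line at each genotype's mean. The hydrophobic frame share was 1.73% and 1.06% in the wild-type libraries for clonotypes with at least 10 reads and 12.2% and 10.7% in the Igll1-/- libraries.

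The same order was seen in the family's main names. For IGHD2-4 the hydrophobic frame share was 9.17% and 3.75% in wild-type against 20.2% and 23.6% in Igll1-/- libraries, the highest of the 5 main names in both Igll1-/- libraries. For IGHD2-5 it was 5.63% and 2.34% against 14.4% and 12.7%, and for IGHD2-1 it was 4.59% and 1.11% against 13.51% and 7.01%. IGHD2-3 had the lowest share of these names in the Igll1-/- libraries, at 3.02% and 1.12% against 5.12% and 4.70%. IGHD2-2 was the exception among the main names, with 9.97% and 8.69% in wild-type against 8.08% and 14.9% in Igll1-/- libraries, so that its genotypes overlapped. Of the rarer names, IGHD2-10 had 2.83% and 0.155% against 6.81% and 4.52%, IGHD2-12 at most 1.40% in any library, IGHD2-13 at most 0.965%, and IGHD2-14 no clonotype with any of the 3 strings. Whether the 3 strings cover the hydrophobic frame of each name was not checked. A low or missing value is therefore not read as absence of the frame. IGHD2-9 ran from 4.76% to 20.8% on few clonotypes, with overlapping genotypes.

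By the 4 strings, the tyrosine frame was lower in both Igll1-/- libraries than in both wild-type libraries for each of the 5 main names. IGHD2-5 used it most, at 59.6% and 63.4% in wild-type against 49.0% and 50.03% in Igll1-/- libraries. IGHD2-3 used it in 50.7% and 53.2% against 32.9% and 39.3%, and IGHD2-4 in 44.3% and 50.2% against 33.8% and 28.8%. IGHD2-2, in which the 4 strings were least frequent of the main names, had 13.54% and 15.3% against 4.83% and 10.1%. Whether the 4 strings cover the tyrosine frame of IGHD2-2 was not checked. The string YGY is not among them and was counted only in an alternative for the whole family. Names with few clonotypes behaved less evenly, and IGHD2-12 and IGHD2-9 showed overlapping genotypes in this frame as well.

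**Figure D3:**
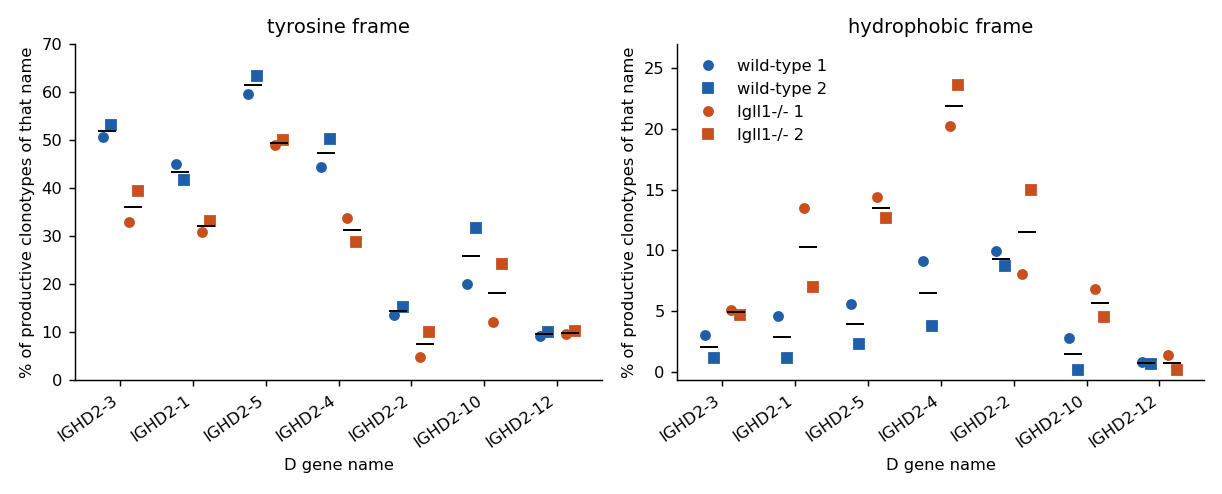
Hydrophobic and tyrosine frame shares of productive clonotypes (percent, vertical axes) for the 7 IGHD2 names with the most productive clonotypes, with one point per library and a short line at each genotype's mean. For IGHD2-4 the hydrophobic frame share was 9.17% and 3.75% in the wild-type against 20.2% and 23.6% in the Igll1-/- libraries, while the genotypes overlapped for IGHD2-2.

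The hydrophobic frame share was also read within J genes and within classes of CDR3 length, because both moved with genotype. On IGHJ1 it was 1.84% and 1.06% in wild-type against 4.78% and 3.38% in Igll1-/- libraries, and on IGHJ3 it was 8.34% and 3.43% against 12.2% and 16.6%. On IGHJ2 and IGHJ4 the Igll1-/- libraries likewise lay above both wild-type libraries, at 7.99% to 12.1% against 2.24% to 5.24%. In CDR3s of 8 to 9 residues the share was 3.19% and 1.77% against 5.40% and 6.77%, and in those of 12 to 13 residues it was 6.35% and 2.60% against 12.7% and 11.5%. By V family, IGHV1 had 5.37% and 2.27% against 11.6% and 9.23%, IGHV9 had 5.52% and 2.71% against 10.96% and 13.7%, and IGHV6 had the highest wild-type values of these with 10.95% and 5.52% against 18.8% and 15.6%. IGHV2 was the one of the V families read whose genotypes overlapped, at 15.95% and 2.91% against 16.03% and 9.62%. IGHV12, the family of the phosphatidylcholine-binding IGHV12-3, held this frame least, with 0.756% and 0.587% against 2.30% and 2.93%. The difference was thus found within each J gene, the CDR3 length classes given and these V families other than IGHV2.

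Unproductive IGHD2 clonotypes without a stop codon in the CDR3 were scored for the same strings. The hydrophobic strings were in 4.23% and 2.15% of them in wild-type against 6.35% and 12% in Igll1-/- libraries, and the tyrosine strings in 45.0% and 46.2% against 30.2% and 38.6%. The order of the genotypes was that of the productive clonotypes. Most unproductive IGHD2 clonotypes carried a stop codon in the CDR3, so these sets are small and the hydrophobic values rest on few clonotypes. They are not read as a repeat of the result. IGHD1-1, read as a comparator chosen after the IGHD2 values were seen, showed smaller gaps. Its tyrosine-bearing string YGS was in 42.6% and 43.0% of productive IGHD1-1 clonotypes in wild-type against 39.7% and 39.7% in Igll1-/- libraries, and its hydrophobic string TVV in 12.1% and 11.7% against 12.6% and 14.5%. The difference between IGHD2 and IGHD1-1 in this respect was not tested.

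To place the frame strings among all others, the number of productive IGHD2 clonotypes holding each run of 3 residues was fitted with edgeR across 1540 tripeptides, 1 of which was called (0.0649%). None of the 7 frame strings passed. MVT was in 2.88% and 1.37% of wild-type and 5.57% and 4.91% of Igll1-/- clonotypes (log2 fold change 1.30, SE 0.35, edgeR adjusted p = 0.234). MIT was in 1.96% and 0.595% against 3.99% and 4.46% (log2 fold change 1.72, SE 0.48, adjusted p = 0.234 in edgeR), and IVT in 1.06% and 0.479% against 2.67% and 2.24% (log2 fold change 1.67, SE 0.42, adjusted p = 0.208 in edgeR). All 3 hydrophobic strings were higher in both Igll1-/- libraries than in both wild-type libraries, as were 16.6% of all tripeptides. The 4 tyrosine strings, DGY, YDY, YGN and YSN, had log2 fold changes of -0.61, -0.49, -0.42 and -0.31 with adjusted p of 0.317 to 0.527 in edgeR, and all 4 were lower in both Igll1-/- libraries, as were 29.3% of all tripeptides.

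These calls depended on both the library left out and the fit. In the fits with a library left out, 1 genotype has a single library, which is assumed to vary like the others. All 3 hydrophobic strings were called without Igll1-/- replicate 1 (edgeR adjusted p at most 0.0186) and without Igll1-/- replicate 2 (at most 0.0033). Without wild-type replicate 1, MIT (edgeR adjusted p = 0.0265) and MVT (0.0388) were called and IVT was not (0.0585), and without wild-type replicate 2, the library with the lowest share of this frame, the adjusted p of all 3 in edgeR was at least 0.995. With all 4 libraries, DESeq2 called all 3 (adjusted p of 0.0273 for MVT, 0.0110 for MIT and 0.0073 for IVT), as did edgeR with TMM normalization (0.0318 for each) and without a filter (at most 0.0042). The fits with at least 2 reads (0.232 for each in edgeR), merged clonotypes (0.0572 for each in edgeR) and weighting by reads (at least 0.242 in edgeR) called none. Nor did edgeR call any with the replicate block (adjusted p of 0.245 for MVT and IVT and 0.333 for MIT). The same held with single-gene D assignments (edgeR adjusted p of 0.183 to 0.211) and without IGHV12-3 and IGHV11-2 (0.203 for each in edgeR). In each of these fits the log2 fold change was above 0.

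The tripeptide called was MRY, the opening of the CDR3 of the leading wild-type clonotype, at a log2 change of -3.10 (SE 0.36, edgeR adjusted p = 0.0149). Without wild-type replicate 2 its edgeR adjusted p was 0.0965. The next smallest p-values belonged to DRD (log2 fold change -3.04) and NYW (-1.82) on the lower side and to TTW (2.47) and RTI (2.97) on the higher side, none of which passed. TMN, also among the smallest p-values and not called, was in 2 and 1 wild-type against 10 and 62 Igll1-/- clonotypes and met the minimum through the Igll1-/- libraries alone.

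With only clonotypes of at least 10 reads, 140 tripeptides could be fitted. MIT was in 6 and 0 wild-type against 34 and 69 Igll1-/- clonotypes, IVT in 2 and 2 against 21 and 22, and MVT in 10 and 8 against 47 and 48. MIT and IVT met the minimum of 10 clonotypes in 2 libraries through the Igll1-/- libraries alone, and so did TTW (3 and 1 against 17 and 30). MVT reached it in the Igll1-/- libraries and, at 10, in wild-type replicate 1. MRY (71 and 123 against 6 and 6) met it through the wild-type libraries alone. The filter thus depended on genotype, so the counts are a description, and no fold, p or call of this fit is read as support. Past the threshold lay 15 tripeptides on the higher side (10.7% of those tested), the 3 strings among them. The others (TMV, TMI, TIV, VTT, ITT, STM, ATM, RST, TTW, TWF, TFA and TAY) may overlap or flank the 3 strings in the same CDR3s, so they are not independent of them. On the lower side lay 7 tripeptides (5%), MRY and NYW of the leading wild-type CDR3 among them, and none of the 4 tyrosine frame strings. All tripeptides share the clonotypes they are counted in, and leaving out single libraries in the fit without a read minimum moved the calls from 0 (without wild-type replicate 2) to 77 (without Igll1-/- replicate 1).

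J segments were compared next. IGHD2 clonotypes used IGHJ1 in 13.2% and 21.1% of wild-type and 11.8% and 10.4% of Igll1-/- clonotypes. IGHJ2 was the most used in every library, at 41.6% and 38.6% against 40.1% and 41.0%. IGHJ3 was used in 25.9% and 19.5% against 26.4% and 28.1%, and IGHJ4 in 19.3% and 20.8% against 21.7% and 20.4%. In these counts the genotypes did not overlap for IGHJ1 (mean difference -6.06 percentage points) and IGHJ3 (4.59), each with an exact permutation p of 0.333, and the second wild-type library stood apart for both. Without that library the differences were -2.12 and 1.39 points, and after merging near-identical clonotypes both J genes overlapped (-4.10 and 4.16). Weighted by reads, all 4 J genes separated the genotypes, with IGHJ1 at 41.8% and 52.9% of IGHD2 reads in wild-type against 11% and 14.9% in Igll1-/- libraries (-34.4 points) and differences of 13.48, 10.5 and 10.4 points for IGHJ2, IGHJ3 and IGHJ4. The 4 shares are parts of one total, so these differences are not separate results. A single IGHJ1 clonotype, mrYGNywyfdv, held 13.1% and 16.2% of IGHD2 reads in the wild-type libraries.

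**Figure D4:**
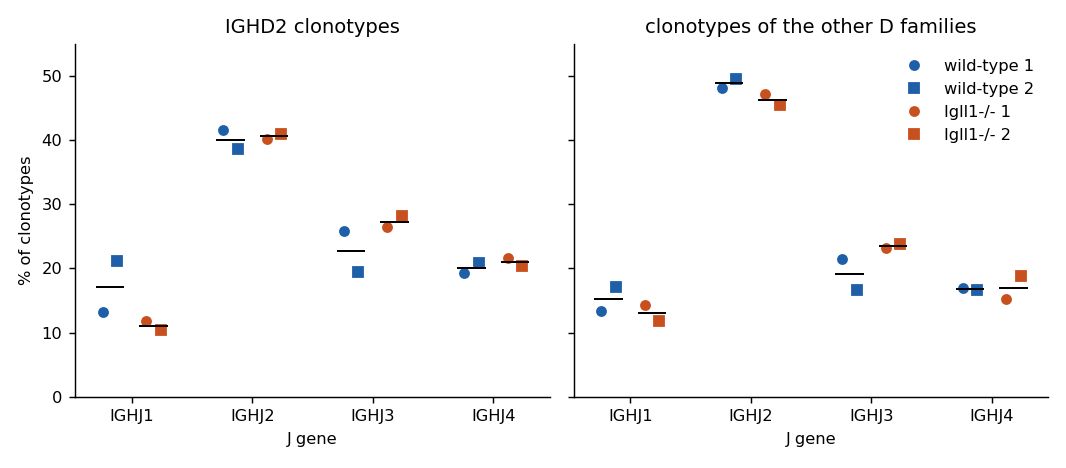
Share of clonotypes on each of the 4 J genes (percent, vertical axis) for IGHD2 and for all other D genes, with one point per library and a short line at each genotype's mean. IGHD2 used IGHJ2 less and IGHJ3 and IGHJ4 more than other D genes in all 4 libraries, and IGHJ1 of IGHD2 ran from 10.4% to 21.1%.

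Relative to the clonotypes of other D genes in the same library, IGHD2 used IGHJ2 less by 4.42 to 10.9 percentage points (mean difference -7.25 ± 2.70, SD over 4 libraries). It used IGHJ3 more by 3.63 ± 0.764 and IGHJ4 more by 3.64 ± 2.14 percentage points. Each of these 3 differences had the same direction in 4 of 4 libraries, with an exact sign-flip p of 0.125, the smallest that 4 libraries can give. Weighted by reads this was lost for each, with mean differences of -6.01 points for IGHJ2 (higher in Igll1-/- replicate 1), 0.279 for IGHJ3 (lower in both wild-type libraries) and 1.83 for IGHJ4 (lower in all but Igll1-/- replicate 1). With at least 10 reads 1 library went the other way for each, namely Igll1-/- replicate 2 for IGHJ2 and IGHJ4 and Igll1-/- replicate 1 for IGHJ3, where the mean difference was 1.61 points. IGHJ1 differed by -0.026 points on average, with both directions among the libraries (exact p = 0.875). The D names outside the family with the J profile nearest to that of IGHD2 were IGHD6-3, at 6.0 percentage points summed over the mean shares of the 4 J genes, and IGHD1-3, at 11.5.

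Across the 84 D-J pairs fitted with edgeR none was called (0%, with 11 at an unadjusted p below 0.05, 6 of them among the 38 IGHD2 pairs). IGHD2-5 joined to IGHJ1 made up 16.8% and 25.3% of IGHD2-5 clonotypes in wild-type against 8.72% and 7.91% in Igll1-/- libraries (log2 fold change -1.39, SE 0.32, adjusted p = 0.302 in edgeR). DESeq2 called this pair and no other (adjusted p = 0.0117), and so did edgeR once Igll1-/- replicate 1 was left out (adjusted p = 0.0406, beside 3 pairs of other D names, with the spread taken from the wild-type libraries alone). IGHD2-1 joined to IGHJ1 made up 14.9% and 28.4% against 9.55% and 7.26% (log2 fold change -1.20, SE 0.36, edgeR adjusted p = 0.302). Both pairs are those of the leading IGHV11-2 clonotypes of the wild-type libraries, and weighting by reads called both, with log2 fold changes of -4.25 and -4.18 and an edgeR adjusted p of 0.0048. IGHD2-5 joined to IGHJ4 made up 21.2% and 20.9% of IGHD2-5 clonotypes against 30.04% and 33.9% and was not called (log2 fold change 0.56, SE 0.20, adjusted p = 0.319 in edgeR).

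Among V genes, IGHD2 stood out on IGHV12-3, the V gene of many phosphatidylcholine-binding B-1a cells. IGHD2 supplied 66.0% and 59.4% of the IGHV12-3 clonotypes with a D gene in wild-type against 63.4% and 68.9% in Igll1-/- libraries, above its share of the whole library in each. In edgeR's fit across 86 V genes with the library as a block, which called 4 (4.65%), IGHV12-3 was higher among IGHD2 than among other D clonotypes by a log2 difference of 1.23 (SE 0.08, edgeR adjusted p = 1.6e-06). Without Igll1-/- replicate 2 the edgeR adjusted p was 0.0665 at a log2 difference of 1.14. IGHD2-3 was the D name most used with IGHV12-3, at 40.1% and 40.5% in wild-type against 24.0% and 47.0% in Igll1-/- libraries.

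The 3 further V genes called differed from other D clonotypes by less. IGHV1-39 was higher among IGHD2 clonotypes (log2 difference 0.35, SE 0.08, edgeR adjusted p = 0.0401), with IGHD2 in 46.8% to 55.2% of its clonotypes. IGHV1-81 (log2 difference -0.33, edgeR adjusted p = 0.0302) and IGHV1-15 (-0.26, edgeR adjusted p = 0.0444) were lower, with IGHD2 in 37.1% to 39.6% and 36.4% to 41.6% of their clonotypes. These 3 calls were lost when any single library was left out. Of the V genes read in any case, IGHV11-2 (log2 difference 0.12, adjusted p = 0.551), IGHV5-2 (0.42, 0.233) and IGHV1-55 (0.08, 0.951) were not called by edgeR, and IGHV7-1 had too few clonotypes to be tested.

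**Figure D5:**
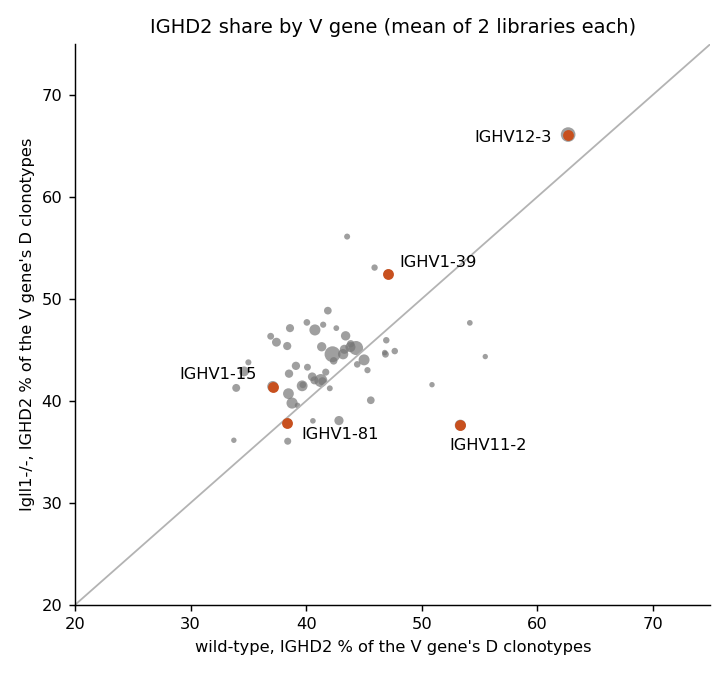
IGHD2 share of the clonotypes of each V gene (percent) in Igll1-/- libraries, vertical axis, against wild-type libraries, horizontal axis (means of the 2 libraries each, axes starting at 20%), for the 57 V genes with at least 400 clonotypes, with point area set by the number of clonotypes, the diagonal marking equal shares and the V genes called by either test in orange. IGHV12-3 lies far above the other V genes on both axes, and IGHV11-2 is high in wild-type (51.8% and 54.9%) and low in Igll1-/- libraries (34.4% and 40.9%).

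IGHV11-2, the other V gene known for phosphatidylcholine binding, was the one V gene called for a difference between genotypes in its use of IGHD2. IGHD2 supplied 51.8% and 54.9% of its clonotypes in wild-type against 34.4% and 40.9% in Igll1-/- libraries. The change in its preference for IGHD2 over other D genes, Igll1-/- minus wild-type, was a log2 difference of -1.03 (SE 0.18, adjusted p = 0.0204), and it was the single call among the 86 V genes in edgeR (1.16%). The same value for IGHV12-3 was 0.09 (edgeR adjusted p = 0.898). Without Igll1-/- replicate 1 the edgeR adjusted p for IGHV11-2 was 0.327, and without replicate 2 it was 0.619, with the lone Igll1-/- library assumed to vary like the wild-type libraries. The call was also lost with DESeq2 (adjusted p = 0.0543) and, in edgeR, with TMM normalization (adjusted p = 0.224), at least 2 reads (0.268), at least 10 reads (0.436) and weighting by reads (0.554), with the same sign throughout. The IGHD2 clonotypes behind these shares were 843 and 1291 in wild-type against 88 and 221 in Igll1-/- libraries.

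Of the D names, IGHD2-1 supplied 16.2% and 17.7% of IGHV11-2 clonotypes in wild-type against 7.81% and 9.43% in Igll1-/- libraries, and IGHD2-5 supplied 15.1% and 14.6% against 6.25% and 9.80%. IGHD2-3 overlapped, at 8.85% and 10.4% against 7.42% and 9.06%. IGHJ1 was the partner of 77.8% and 78.8% of the IGHV11-2 clonotypes with IGHD2 in wild-type and of 37.5% and 35.3% in Igll1-/- libraries. The hydrophobic frame was in 1.83% and 0.787% of productive IGHV11-2 clonotypes with IGHD2 against 12% and 8.02%. As a share of all IGHD2 clonotypes, the IGHV11 family held 3.91% and 6.92% in wild-type against 0.914% and 1.19% in Igll1-/- libraries, while IGHV1, the largest V family, held 46.3% and 42.8% against 44.8% and 42.5%, IGHV5 15.6% and 11.6% against 15.7% and 18.4%, and IGHV12 7.99% and 7.04% against 6.74% and 7.03%.

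Functionality, the label for an in-frame rearrangement without a stop codon, was compared next. IGHD2 clonotypes were productive in 90.9% and 90.2% of cases in wild-type against 92.8% and 92.6% in Igll1-/- libraries (90.6 ± 0.46% and 92.7 ± 0.20%, SD, n = 2 each, exact permutation p = 0.333). By reads the order was the opposite, with 94.97% and 93.2% in wild-type against 89.7% and 86.8% in Igll1-/- libraries. IGHD2 was less often productive than other D genes in 4 of 4 libraries, by 2.45 ± 1.14 percentage points (SD over 4 libraries, exact sign-flip p = 0.125). A stop codon was in the CDR3 of 6.96% and 8.80% of IGHD2 clonotypes in wild-type against 6.24% and 6.46% in Igll1-/- libraries, against 4.48% to 4.98% for other D genes.

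Of the main names, IGHD2-2 was the most often productive, at 95.3% to 96.7% per library. IGHD2-5 was productive in 89.1% and 81.2% of wild-type and 93.6% and 93.2% of Igll1-/- clonotypes, the widest difference of these names. In edgeR's fit across the 39 combinations of D name and functionality none was called (0%, with 4 at an unadjusted p below 0.05). Unproductive IGHD2-5 clonotypes gave a log2 value of -1.22 (SE 0.32, edgeR adjusted p = 0.209), and DESeq2 called it alone (adjusted p = 0.0188). In edgeR it was called after merging near-identical clonotypes (adjusted p = 0.0230) and without wild-type replicate 1 (adjusted p = 0.0329) or without Igll1-/- replicate 1 (0.0267), fits in which the spread of the single remaining library of a genotype is taken from the other.

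CDR3s of productive IGHD2 clonotypes averaged 11.11 and 10.96 residues in wild-type against 10.9 and 10.6 in Igll1-/- libraries (11.04 ± 0.11 and 10.7 ± 0.18, SD, n = 2 each, exact permutation p = 0.333). CDR3s of 8 or fewer residues made up 14.2% and 15.1% against 18.0% and 21.8%. In all 4 libraries IGHD2 CDR3s were longer than those of other D genes, by 0.273 ± 0.059 residues. IGHD2-4 and IGHD2-3 gave CDR3s of 10.8 to 11.4 residues in each library, and IGHD2-12 and IGHD2-13 the shorter ones among the rarer names, at 8.94 to 10.03.

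Tyrosine was 24.5% and 25.4% of the CDR3 residues in wild-type against 23.6% and 24.2% in Igll1-/- libraries. This was 4.07 ± 0.873 percentage points above other D genes in the same libraries (higher in 4 of 4, exact sign-flip p = 0.125). Glycine was 8.28% and 8.50% against 7.49% and 6.98%, and lay 1.15 ± 0.157 points below other D genes in 4 of 4 libraries (exact sign-flip p = 0.125). The names differed most in glycine: IGHD2-3 had 11.6% and 12.4% against 10.96% and 9.48%, IGHD2-4 had 5.29% and 4.92% against 4.66% and 3.94%, and IGHD2-5 had 2.76% and 2.59% against 2.80% and 1.91%. CDR3s without any glycine made up 36.3% and 34.9% of wild-type and 43.0% and 45.4% of Igll1-/- IGHD2 clonotypes.

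Methionine, valine, isoleucine and threonine together made up 9.66% and 9.04% of the residues in wild-type against 13.1% and 13.3% in Igll1-/- libraries. In other D genes the same sum was 11% and 11.1% against 11.3% and 12.9%. Threonine contributed most to the difference, at 2.97% and 2.18% against 5% and 4.64%. Aspartate, which is part of the tyrosine-frame strings DGY and YDY, was 12.6% and 12.6% against 10.6% and 10.7%. These composition values are counted over the same clonotypes as the frame strings and are not separate evidence.

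Clonotypes shared between libraries were read last. Defined by V gene, J gene and CDR3 amino acids, 10062 to 17972 productive IGHD2 clonotypes per library were distinct, and 465 were found in all 4. Of these, 201 (43.2%) carried the tyrosine frame and 28 (6.02%) the hydrophobic frame, 273 used IGHJ2, and 37 and 18 used IGHV12-3 and IGHV11-2. The one with the highest lowest share of reads was mrYGNywyfdv, at 6.34% and 7.52% of all reads in wild-type against 0.0365% and 0.0452% in Igll1-/- libraries.
IGHV11-2 IGHD2-5 IGHJ1: mrYSNywyfdv
IGHV12-3 IGHD2-3 IGHJ1: agdyDGYwyfdv
IGHV12-3 IGHD2-3 IGHJ2: agdyDGYyyfdy
The next was mrYSNywyfdv, which differs from it in the D residues and held 2.53% and 3.74% of reads in wild-type against 0.0227% and 0.0207% in Igll1-/- libraries. The CDR3 agdyDGYwyfdv held 3.31% and 0.237% against 0.0210% and 0.0172%, with the first wild-type library far above the second. The CDR3 agdlyDGYyyfdy was large in a single library, Igll1-/- replicate 2 (3.69% of reads), and between 0.00893% and 0.0412% in the others, and agdyDGYyyfdy reached 0.583% in the same library. All 5 of these shared clonotypes read IGHD2 in the tyrosine frame and use IGHV11-2 or IGHV12-3.

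Hydrophobic-frame clonotypes of the wild-type libraries were found again in an Igll1-/- library in 29.8% and 28.7% of cases, against 23.6% and 14.3% of all productive IGHD2 clonotypes. Those of the Igll1-/- libraries were found again in a wild-type library in 17.2% and 11.2% of cases, against 24.2% and 19.1% of all. Both rates also follow how many hydrophobic-frame clonotypes the libraries of the other genotype hold. No adjustment was made for this, so they are not separate evidence. Identity to the germline V gene was 100% in 45.1% and 47.2% of IGHD2 clonotypes in wild-type against 41.4% and 39.1% in Igll1-/- libraries. For other D genes this share was 43.2% and 43.7% against 41.3% and 37.0%. Products of 120 to 280 base pairs made with V primers cover only part of the V segment. Without molecular identifiers, errors of amplification and sequencing could not be separated from mutation. These shares are therefore not read as a measure of mutation or of a genotype difference in it.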

How the data were processed

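The authors amplified and sequenced rearranged immunoglobulin DNA and named the segments of each clonotype by IMGT/High-V-QUEST. The genome build is not given in the sources used here. The deposited values are the read count of each clonotype and the percent identity to the germline V gene. The 4 heavy-chain libraries were used, and the 6 light-chain libraries, which hold no D gene, were not. Groups came from the genotype labels. Each clonotype was counted once, and counts per D name, D-J pair, functionality, V gene or CDR3 tripeptide were fitted with edgeR 4.0.16 (R 4.3.3, quasi-likelihood, Benjamini-Hochberg over all features, at least 10 clonotypes in at least 2 libraries), with DESeq2 1.42.0 as an alternative. Library size in edgeR was the clonotypes with a D gene for D names, D-J pairs and functionality. For V genes it was the IGHD2 or the other D clonotypes of the library, and for tripeptides its productive IGHD2 clonotypes. The fitting was tested on simulated data with a fixed spread that was not estimated from these libraries. That test does not bear on how stable the calls are. Single values were compared with two-sided exact permutation or sign-flip tests. Wilson intervals cover counting error only. Text names all IGHD2 names, IGHD1-1 and IGHD4-1, the 2 nearest J profiles, called and preset V genes, the frame strings with up to 3 further tripeptides per direction by p, and the largest and most widely shared clonotypes. Members and lists were chosen with earlier results of these data known. Replicate numbers did not pair the libraries consistently (correlation of deviations -0.043 over D names, -0.18 over D-J pairs and 0.39 over V genes of IGHD2). Alternatives were weighting by reads, minimums of 2 and 10 reads, merging of near-identical clonotypes, single-gene D assignments, productive clonotypes, other normalizations and filters, leaving out each library, and a replicate block.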

Additional observations from a re-analysis of the deposited data

Results flagged for a closer look

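The preference of IGHV11-2 for IGHD2 differed between genotypes in the test of the difference itself, with a log2 value of -1.03 (Igll1-/- minus wild-type, SE 0.18, edgeR adjusted p = 0.0204). Its IGHD2 clonotypes numbered 88 and 221 in the Igll1-/- libraries against 843 and 1291 in the wild-type libraries. The call was lost without Igll1-/- replicate 1 (edgeR adjusted p = 0.327) or replicate 2 (0.619), with DESeq2 (0.0543) and, in edgeR, with TMM normalization (0.224), a minimum of 2 reads (0.268) or 10 reads (0.436) and weighting by reads (0.554), while the sign held in each.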

How the results depend on the processing

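The hydrophobic frame share was higher and the tyrosine frame share lower in Igll1-/- libraries under each alternative run, with differences of 6.73 to 17.6 and -29.7 to -10.7 percentage points (5.21 to 8.43 and -13.7 to -10.5 with 1 library left out). The 17.6 points belong to the share among clonotypes with strings of exactly 1 frame, whose denominator differs from that of the other hydrophobic alternatives. IGHD2 calls depended more on the setting. D-J pairs called numbered 1 with DESeq2, 2 weighted by reads and 0 to 4 with 1 library left out, and combinations with functionality numbered 1 with DESeq2, 1 after merging near-identical clonotypes and 0 to 3. V genes called for IGHD2 against other D (4 as reported) numbered 1 with DESeq2, 2 with TMM, 1 with at least 10 reads, 11 after merging, 10 without a filter, 9 with single-gene D assignments, 0 weighted by reads and 0 to 1 with 1 library left out. V genes called between genotypes (1 as reported) numbered 0 with DESeq2, TMM, either read minimum or weighting by reads, and 0 to 1 with 1 library left out. The IGHV11-2 log2 value ran from -1.70 to -0.84. Tripeptides called (1 as reported) numbered 53 with DESeq2, 26 with TMM, 22 with at least 10 reads, 0 with at least 2 reads, 2 after merging, 61 without a filter, 2 weighted by reads, 0 without IGHV12-3 and IGHV11-2, and 0 to 77 with 1 library left out. With the replicate block, which pairs libraries by number only, 1 V gene (IGHV12-3) and 0 tripeptides were called, IGHV11-2 kept its call at -1.06 and no other call changed; crossing the numbers left 0 D-J pairs called. The direction turned for the family share weighted by reads (-3.75 points), the productive share (-5.79) and tyrosine (0.614) weighted by reads, IGHJ4 between genotypes after merging (-0.204), IGHJ2 between genotypes with at least 2 (-0.689) or 10 reads (-1.05) and with 1 library left out (-1.01 to 1.97), and IGHJ1 of IGHD2 against other D weighted by reads (3.91), with at least 2 (0.756) or 10 reads (2.14), productive only (0.246) and with 1 library left out (-1.34 to 0.811). The causes were not tested. The read classes, the J gene and CDR3 length classes, the exact-1-frame share, the IGHD1-1 strings and the crossed block were chosen after seeing the data. Few clonotypes have 10 reads or more, which limits the rarer names.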
